A study of Mus musculus with 4 samples.

Results

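The cells described here are Foxp3-expressing T cells, the regulatory T cells (Tregs) of the host, among CD45+ leukocytes sorted from B16-F10 melanomas of C57BL/6 mice. A barcode counted as a Treg when it held at least 1 Foxp3 UMI, at least 1 UMI of Cd3d, Cd3e or Cd3g, fewer than 2 UMIs of Cd8a and Cd8b1 together and no Cd79a UMI, with Lyz2 under 10 per 10000 UMIs. A UMI (unique molecular identifier) stands for 1 captured transcript. Barcodes had first to hold at least 1000 UMIs from at least 500 genes, with at most 10% mitochondrial UMIs. The rule found 255 Tregs among 12047 such barcodes in the 2 endogenous libraries, and all 4 libraries of the series held 15132. Of the 255, 150 came from the IRF4 arm and 105 from the control arm, called controls below.

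Regulatory T cells are CD4 T cells that restrain other lymphocytes, and the transcription factor FOXP3 sets their identity. They bind interleukin-2 through CD25, encoded by Il2ra, and strip costimulatory ligands from antigen-presenting cells through CTLA-4. Helios, encoded by Ikzf2, is an Ikaros-family factor that most thymus-derived Tregs carry. Tregs in tumours commonly take an activated form with TNF receptor family members on their surface, while resting Tregs share a lymphoid homing programme with naive T cells.

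The study transferred Pmel-1 CD8 T cells, whose receptor recognises a melanocyte antigen, into tumour-bearing mice 3 days after implantation. The cells carried IRF4-GFP in the IRF4 arm and GFP alone in controls. On day 14 both the Pmel-1 cells and the host's own CD45+ cells were sorted from each arm and profiled by droplet single-cell RNA sequencing of transcript 3' ends. Host Tregs of both arms were thus unmodified cells in mice that had received Pmel-1 cells, and the labels do not give the number of mice behind a library. Each arm had 1 endogenous library, so arms are compared without a test, intervals cover counting error only, and the arm cannot be told apart from the library, the mice or the sort.

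The kept barcodes of the endogenous libraries, 6371 in the IRF4 arm and 5676 in controls, held 80371911 and 81911527 UMIs. Tregs had a median of 8610 UMIs in the IRF4 arm and 15741 in controls, with ranges of 1233 to 72429 and 1835 to 90927. The endogenous libraries shared 13 kept barcodes, none of them a Treg, and 1 Treg barcode also occurred in a transferred library of the control arm. The sorted Pmel-1 libraries held 0 kept barcodes with a Foxp3 UMI of 572 in the IRF4 arm and 3 of 2513 in controls.

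Of the kept barcodes with a Foxp3 UMI, 211 in the IRF4 arm and 214 in controls, the CD8 limit alone turned away 36 and 30. The Lyz2 limit alone turned away 13 in the IRF4 arm and 47 in controls, 1 and 4 of them within 10 to 20 per 10000 UMIs. Among members, 9 in the IRF4 arm and 4 in controls lay at 5 to 10 Lyz2 UMIs per 10000. A Cd4 UMI was seen in 119 of the 150 and 82 of the 105 members. Foxp3 was rare in B and myeloid cells, which should lack it. It occurred in 0 of 115 B cells of the IRF4 arm, which allows a share of up to 2.609% of barcodes with a UMI, and in 2 of 473 (0.423%) of the control arm. Myeloid cells without a Cd3 UMI had Foxp3 in 2 of 1006 barcodes (0.199%) in the IRF4 arm and 5 of 1636 (0.306%) in controls, at median depths of 11610 and 14390 UMIs. CD8 T cells had it in 36 of 2059 (1.75%) and 30 of 770 (3.90%), and after thinning to 2000 UMIs in 0.631% and 0.779%.

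The other 3 markers of the label separated the cells from conventional CD4 T cells of the same libraries. Those were barcodes with a Cd4 UMI and no Foxp3 UMI that otherwise met the same rule, 361 in the IRF4 arm and 265 in controls. They can include Tregs whose Foxp3 went uncaptured. Ikzf2 (chromosome 1, 69531214 to 69687245, mm10) stood at 1320 and 830.2 counts per 1000000 summed UMIs (CPM) in Tregs of the IRF4 and control arms, against 193.3 and 101.9 CPM in conventional cells. Ctla4 (chromosome 1, 60887000 to 60915832) stood at 1079 and 576.7 CPM in Tregs, against 147.1 and 71.31 CPM in conventional cells. Il2ra (chromosome 2, 11642807 to 11693193) stood at 193.2 and 158.6 CPM in Tregs, against 19.08 and 11.09 CPM in conventional cells. Both Treg libraries lay above both conventional profiles for each of the 3 genes. The weakest members shared the pattern. Among the 22 and 13 members with exactly 1 Foxp3 UMI and few antigen-presenting-cell transcripts, Ikzf2 stood at 1660 CPM in the IRF4 arm and 1490 CPM in controls. Foxp3 itself (chromosome X, 7573644 to 7595245) chose the cells, so its levels, 295 CPM in the IRF4 arm and 203.8 CPM in controls, are a description.

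A share of the members also carried transcripts of antigen-presenting cells. MHC class II transcripts (Cd74, H2-Aa, H2-Ab1 and H2-Eb1), which mouse T cells largely lack, stood at 30 or more per 10000 UMIs in 13 of 150 members in the IRF4 arm and 38 of 105 in controls. Of these, 12 and 35 reached 100 per 10000. With a second limit of 10 per 10000 for Tyrobp and Fcer1g, adaptors of myeloid and natural killer cells, 20 of 150 members (13.3%, exact 95% interval 8.34 to 19.8%) in the IRF4 arm and 40 of 105 (38.1%, 28.8 to 48.1%) in controls reached a limit. These barcodes were deep, with medians of 21290 UMIs in the IRF4 arm and 31496 in controls, and held 26.5% and 62.3% of all Treg UMIs. Among members of 20000 or more UMIs, 13 of 30 in the IRF4 arm and 36 of 47 in controls reached a limit. Over all depths the share was 4.99% in conventional CD4 T cells of the IRF4 arm and 10.9% in those of controls. In CD8 T cells it was 6.03% and 13.0%. Conventional cells were shallower, with medians of 4664 UMIs in the IRF4 arm and 5060 in controls. At 10000 to 20000 UMIs, 3 of 28 Tregs of the IRF4 arm and 3 of 14 of controls reached a limit, against 13 of 23 and 8 of 14 conventional cells. At 20000 or more UMIs, 1 of 4 and 16 of 19 conventional cells did. Against conventional cells, the higher share of Tregs over all depths was thus not seen at each depth. Against CD8 T cells it was, in both arms. At 20000 or more UMIs, 9.01% and 35.4% of CD8 T cells reached a limit, against 43.3% and 76.6% of Tregs. At 10000 to 20000 UMIs the shares were 8.49% and 15.9%, against 10.7% and 21.4%. Below 10000 UMIs they were 2.73% and 1.76%, against 4.35% and 2.27%. Counting intervals overlapped below 20000 UMIs.

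**Figure D1:**
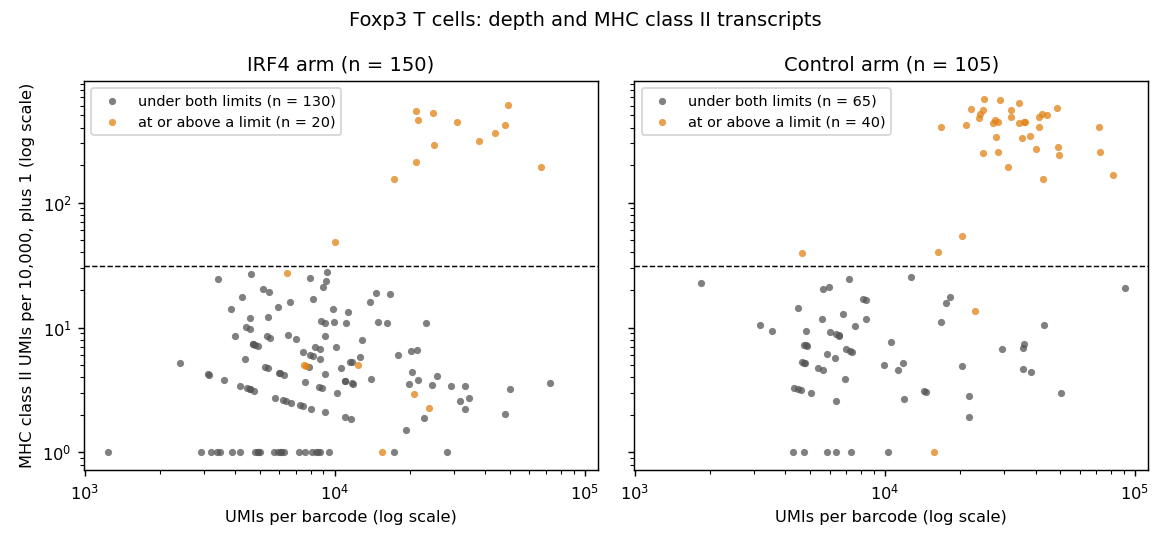
Each point is 1 Treg barcode, with its UMIs on the x axis (log scale) and its MHC class II UMIs per 10000 plus 1 on the y axis (log scale), IRF4 arm left and control arm right. Orange points reached the MHC class II limit (dashed line, 30 per 10000) or the Tyrobp and Fcer1g limit, 20 of 150 and 40 of 105 barcodes, and most of them lie at the right, among the deepest barcodes.

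The transcripts in those barcodes were of several kinds, and the genes named here were chosen after their values were seen. Xcr1, a receptor of cross-presenting dendritic cells, stood at 264.6 CPM in the IRF4 arm and 45.45 CPM in controls. Cd209a, of monocyte-related dendritic cells, stood at 182.3 and 481.7 CPM. C1qb, a complement gene of macrophages, stood at 0 and 183.3 CPM, and Ncr1, a natural killer receptor, at 68.61 and 2.199 CPM. Their Foxp3 was 141.1 CPM in the IRF4 arm and 145.9 CPM in controls, against 350.5 and 299.6 CPM in the other members, and their Cd3e was 182.3 and 154 CPM, against 460 and 390.5 CPM. In the members under both limits the 4 dendritic markers summed to 0.707 CPM in the IRF4 arm and 13.3 CPM in controls, with Flt3, Xcr1 and Clec9a at 0 UMIs in the IRF4 arm. Whether 2 cells shared a droplet or a T cell carried foreign transcripts was not tested. Each result below is given for all members or for the 130 and 65 members under both limits, and for both where they differ.

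With all members, the Treg share of kept leukocytes did not separate the arms beyond counting error, and Tregs were fewer per CD8 T cell in the IRF4 arm. They were 2.35% of kept barcodes in the IRF4 arm (1.996 to 2.76%) and 1.85% in controls (1.52 to 2.24%), a ratio of 1.27 (0.985 to 1.65). Under both limits the shares were 2.04% and 1.15%, a ratio of 1.78 (1.31 to 2.44). The limits took out 20 members in the IRF4 arm and 40 in controls, and left the total of kept barcodes as it was. With only members that had no Lyz2 UMI the ratio was 2.24 (1.48 to 3.46). The direction depends on the Lyz2 limit of the rule, which alone turned away 13 Foxp3 barcodes in the IRF4 arm and 47 in controls. With these counted as Tregs, the control share would exceed that of the IRF4 arm. CD8 T cells, with 2 or more UMIs of Cd8a and Cd8b1 and no Foxp3 UMI, made up 31.8% of kept barcodes in the IRF4 arm and 13.0% in controls. There were 7.42 Tregs per 100 CD8 T cells in the IRF4 arm and 14.2 in controls, a ratio of 0.523 (0.405 to 0.677). Without the barcodes over a limit in either class the ratio was 0.678 (0.499 to 0.927), still below 1. Within CD4 T cells the Treg share was 29.4% (150 of 511) in the IRF4 arm and 28.4% (105 of 370) in controls, a ratio of 1.03 (0.801 to 1.34), and under both limits 27.5% and 21.6%, a ratio of 1.27 (0.938 to 1.74).

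Across all genes, Tregs and conventional CD4 T cells differed widely. UMIs were summed per library and class, and the 4 profiles were compared with edgeR's quasi-likelihood test with the library as a block. At a Benjamini-Hochberg adjusted p under 0.05, 860 of 9415 genes (9.13%) were higher in Tregs and 726 (7.71%) lower. With the members under both limits, 1101 of 8464 genes (13.0%) were higher and 1006 (11.9%) lower. The fit leaves 1 residual degree of freedom among profiles and leans on the spread shared by all genes. Without TMM scaling it called 1336 genes higher and 678 lower, and DESeq2 called 240 and 229. Values below are from the members under both limits unless stated.

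The identity genes moved together. Of 13 genes of a Treg identity list other than Foxp3, 10 were higher in Tregs and 1 was lower, both in all members and under both limits, with a median log2 ratio of 2.38 under both limits, beside -0.02 over all genes tested. Il2ra had a log2 ratio of 3.97 ± 0.18 (SE) and an adjusted p of 7.9e-07 by edgeR's quasi-likelihood test with Benjamini-Hochberg adjustment. Ikzf2 had 3.01 ± 0.18 and Ctla4 2.95 ± 0.16. Lrrc32, whose product GARP holds latent TGF-beta at the surface, had 3.26 ± 0.51, and Itgae, the CD103 integrin chain, 3.34 ± 0.33. Ikzf4, the Helios relative Eos, had 2.94 ± 0.29. The exception was Nrp1, neuropilin-1, often read as a mark of thymus-derived Tregs. It stood at 54.41 and 27.9 CPM in Tregs of the IRF4 and control arms, against 105.7 and 90.65 CPM in conventional cells, a log2 ratio of -1.38 ± 0.22 (adjusted p 0.0011 by the same edgeR test).

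Genes of the activated tumour form were higher in Tregs. Of 19 genes tested of an activated tumour Treg list, 14 were higher and 0 lower, with a median log2 ratio of 1.73 (13 of 18 with all members). Klrg1, a receptor of terminally differentiated lymphocytes, stood at 151.2 and 207.4 CPM in Tregs, against 8.526 and 6.856 CPM in conventional cells, a log2 ratio of 4.31 ± 0.22 (adjusted p 1.4e-06 by edgeR's quasi-likelihood test with Benjamini-Hochberg adjustment). Il1r2, a decoy receptor for interleukin-1, had a log2 ratio of 4.27 ± 0.28. Among TNF receptor family members, Tnfrsf9 (4-1BB) had 3.21 ± 0.17, Tnfrsf4 (OX40) 2.44 ± 0.16 and Tnfrsf18 (GITR) 1.44 ± 0.15. The coreceptor gene Icos had 0.58 ± 0.15 (adjusted p 0.017), and with all members its call was lost without any Lyz2 UMI, at up to 5% mitochondrial UMIs and with DESeq2. Of the transcription factors, Prdm1 (BLIMP-1) had 2.23 ± 0.20 and Batf 0.96 ± 0.15, and with all members the Batf call was lost under 5 alternatives. Ccr8, a chemokine receptor of tumour Tregs, was called at 2.50 ± 0.74 (adjusted p 0.032), but on only 21 and 10 UMIs in the Tregs, at 14.84 and 12.13 CPM.

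Irf4, the factor carried by the transferred cells, was scarce in the host Tregs. It stood at 11.31 CPM (16 UMIs in 11 barcodes) in the IRF4 arm and 32.75 CPM (27 UMIs in 16 barcodes) in controls, against 2.842 and 1.524 CPM in conventional cells. The log2 ratio of Tregs over conventional cells was 2.88 ± 0.61 (adjusted p 0.0062 by edgeR's quasi-likelihood test with Benjamini-Hochberg adjustment). With all members, its call was lost without any Lyz2 UMI and at up to 5% mitochondrial UMIs. Il1rl1, the interleukin-33 receptor of tissue Tregs, did not pass the test, at -0.04 ± 0.66 (adjusted p 0.98). Its libraries ran in opposite directions, with 18.37 and 2.426 CPM in Tregs and 7.958 and 12.95 CPM in conventional cells. Pdcd1 (PD-1) also did not pass, at 249.4 and 162.5 CPM in Tregs and 240.4 and 109.7 CPM in conventional cells, a log2 ratio of 0.12 ± 0.15 (adjusted p 0.60).

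Genes of the suppressive toolkit were also higher. Of 16 tested, 14 were higher in Tregs and 0 lower, in all members and under both limits, with a median log2 ratio of 2.21 under both limits. Il10, the suppressive cytokine, stood at 93.98 and 46.09 CPM in Tregs, against 7.39 CPM and 0 UMIs in conventional cells. Itgb8, whose integrin releases active TGF-beta, stood at 101.7 and 64.28 CPM in Tregs, against 3.411 and 4.571 CPM. Both Treg libraries lay above both conventional profiles in the 2 genes. The cytotoxic Gzmb (granzyme B) had a log2 ratio of 2.50 ± 0.15 and Prf1 (perforin) 2.69 ± 0.52. The repair factor Areg had 2.75 ± 0.41, the inhibitory receptors Lag3 and Havcr2 (TIM-3) 3.09 ± 0.18 and 3.16 ± 0.26, and Entpd1, the ectoenzyme CD39, 1.71 ± 0.23. Penk, which encodes the opioid precursor proenkephalin, had 4.19 ± 0.53. The partner ectoenzyme gene Nt5e (CD73) did not pass, at -0.25 ± 0.23 (adjusted p 0.47 by edgeR's quasi-likelihood test with Benjamini-Hochberg adjustment), and neither did Il1rn. Among 13 inhibitory receptors tested, 6 were higher, Tigit among them at 1.84 ± 0.59, and 2, Btla and Cd96, were lower.

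**Figure D2:**
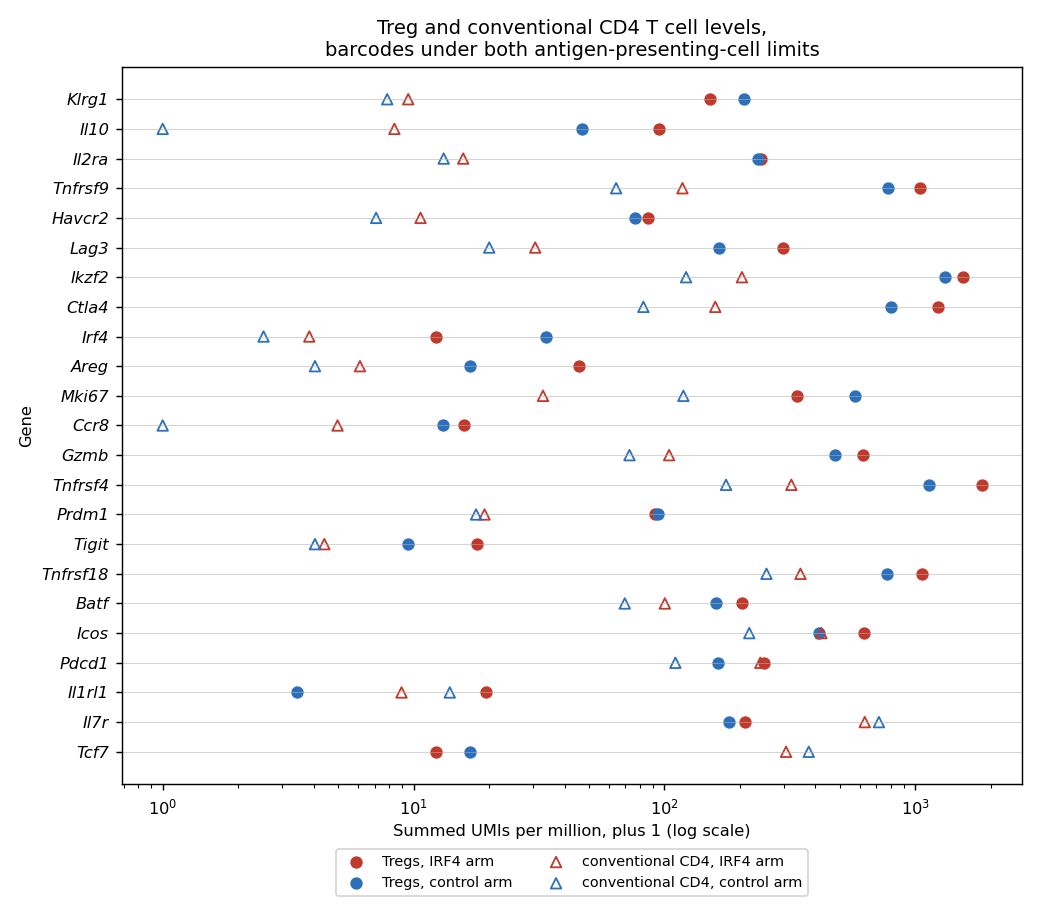
Levels of primary genes in Tregs (filled circles) and conventional CD4 T cells (open triangles) under both limits, as CPM plus 1 on a log axis, in the IRF4 arm (red) and the control arm (blue). For Klrg1 the Treg circles lie at 151.2 and 207.4 CPM and the conventional triangles at 8.526 and 6.856 CPM, whereas for Tcf7 the order is turned round.

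The resting programme ran the other way. Of 14 genes of a resting and recirculating list, 12 were lower in Tregs and 0 higher, in all members and under both limits, with a median log2 ratio of -2.82 under both limits. Tcf7, the stem-like factor TCF1, stood at 11.31 and 15.77 CPM in Tregs of the IRF4 and control arms, against 304.7 and 375.6 CPM in conventional cells, a log2 ratio of -4.82 ± 0.19 (adjusted p 2.9e-07 by edgeR's quasi-likelihood test with Benjamini-Hochberg adjustment). Klf2, which drives egress genes, stood at 149.1 and 80.05 CPM in Tregs, against 823.7 and 811.3 CPM. Both Treg libraries lay below both conventional profiles for Tcf7 and Klf2. Bcl2, a survival gene, had -3.40 ± 0.22, Bach2 -4.77 ± 0.66 and S1pr1, the egress receptor, -2.71 ± 0.35. The interleukin-7 receptor gene Il7r, commonly low on Tregs, had -1.94 ± 0.18, with 208.4 and 179.5 CPM left in Tregs. Ccr7, a receptor for lymph node homing, did not pass, at -0.93 ± 0.40 (adjusted p 0.12 by the same edgeR test).

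Tregs also carried more division and glycolysis transcripts than conventional cells. All 21 proliferation genes were higher under both limits, and 19 of 21 in all members, with a median log2 ratio of 1.65 under both limits. Mki67 stood at 337 and 572.5 CPM in Tregs, against 31.83 and 118.1 CPM in conventional cells, and with all members its call was lost at up to 5% mitochondrial UMIs. Under both limits 13 of 16 glycolysis genes were higher and none lower, at a median of 1.15. Slc16a3, a lactate exporter, had 3.20 ± 0.20, Tpi1 1.62 ± 0.16 and Ldha 1.13 ± 0.17. Of 14 sterol and lipid genes, 7 were higher and 0 lower. The fatty-acid chaperone Fabp5 had 3.10 ± 0.38, at an unequal 113.1 and 471.8 CPM in the Tregs of the 2 arms. Of 14 apoptosis regulators, 5 were higher and 3 were lower, among them Bcl2l11 (BIM) at -1.80 ± 0.29.

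The remaining lists are read against the 13.0% of all genes that were higher and the 11.9% that were lower under both limits, and several counts lie near these shares. Of 14 chemokine receptor and adhesion genes, 4 were higher and 7 lower. Ccr2, a receptor for inflammatory chemokines, had 1.56 ± 0.15. The integrin genes Itgb1 and Itga4, whose products pair as VLA-4, had -2.79 ± 0.17 and -2.21 ± 0.21. Cxcr6 had -1.997 ± 0.23. Of 23 cytokine receptor and STAT5 genes, 5 were higher, Il2rb at 0.80 ± 0.14 among them, and 6 lower, such as Tgfbr2 at -1.97 ± 0.17 and Socs3 at -2.09 ± 0.20. Of 16 TNF receptor and NF-kB genes, 9 were higher and 1, Tnfaip3, lower at -0.69 ± 0.18. Of 10 T helper lineage genes, 0 were higher and 4 lower, Stat4 at -1.44 ± 0.20 and Cxcr3 at -0.77 ± 0.16 among them.

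Genes induced by antigen receptor signals ran both ways. Of 17 tested, 6 were higher, including the orphan receptor genes Nr4a1 at 2.56 ± 0.41 and Nr4a3 at 1.55 ± 0.46 and the growth regulator Myc at 1.64 ± 0.34. The 7 lower genes included the AP-1 members Fosb at -2.35 ± 0.19 and Fos at -1.45 ± 0.15. Among 9 effector cytokine and chemokine genes 0 were higher and 4 lower, such as Cd40lg at -3.90 ± 0.35, Il2 at -2.07 ± 0.38 and Ifng at -1.25 ± 0.32. Of 14 type I interferon response genes 1 was higher and 5 lower, Ifit3 at -3.78 ± 0.32 the most of these. Of 18 interferon-gamma response genes, 6 were higher, Irf8 at 2.596 ± 0.19 and Iigp1 at 0.93 ± 0.15 among them, and 1 lower. Of 10 heat shock genes 1 was higher and 3 lower, such as Hspa1a at -1.29 ± 0.14.

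Ranked by log2 ratio, the 10 genes most raised in Tregs under both limits were Klrg1, Il1r2, Itgb8, Tmem158, Penk, Neb, Il10, Il2ra, Tnfrsf8 and Itih5. Neb, which encodes the giant muscle protein nebulin, stood at 122.2 and 111.6 CPM in Tregs, against 4.547 and 7.618 CPM in conventional cells. The 10 lowest were Apol7e, Dapl1, Tdrp, St8sia1, Dtx1, Tcf7, Hs3st3b1, Nsg2, Bach2 and Fam101b. Dapl1 stood at 0 and 2.426 CPM in Tregs, against 65.94 and 166.8 CPM. Dtx1, a Notch pathway ubiquitin ligase, was at 0 UMIs in the IRF4 arm and 2 in controls. With all members, the first 10 also held Tlr3, Xcr1, Areg and Rapsn, and the last 10 Ly6d, Cox6a2, Klk1, Ehd3 and Cd40lg. Tlr3 and Xcr1 mark cross-presenting dendritic cells, and neither was abundant enough to be tested under both limits. The 4 dendritic markers were all higher in Tregs with all members, and the red cell gene Hbb-bs lay lower, at 0 and 32.75 CPM in Tregs under both limits, against 0 and 3375 CPM in conventional cells, so only the control library held it.

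Shares of barcodes after thinning to equal depth gave the same picture. The classes were set before thinning, when Tregs were deeper. Under both limits their medians were 7976 UMIs in the IRF4 arm and 6946 in controls, against 4521 and 4928 in conventional cells. The part of that choice in the shares was not tested. Each barcode was thinned to 2000 UMIs, which left 129 Tregs of the IRF4 arm and 64 of the control arm under both limits, beside 342 and 235 conventional cells under the same limits. Ikzf2 was then seen in 91.5% and 87.5% of Tregs, against 18.1% and 12.3% of conventional cells and 0.870% and 0.423% of B cells. Before thinning the Treg shares were 98.5% and 95.4%. Ctla4 was seen in 72.9% and 67.2% of thinned Tregs, Tnfrsf4 in 83.7% and 79.7%, and Tnfrsf9 in 69.0% and 73.4%. These 4 genes were thus detected in most members of both arms. Il2ra was seen in 27.1% and 26.6%, against 1.46% and 1.28% of conventional cells. Klrg1 marked 20.9% and 26.6%, Gzmb 41.1% and 39.1%, Il10 13.95% and 10.9%, and Lag3 38.0% and 35.9%. Tcf7 was seen in 3.88% and 4.69% of Tregs, against 44.4% and 53.6% of conventional cells. Icos was the gene whose arms lay furthest apart among the plotted ones, at 69.8% (61.1 to 77.5%) in the IRF4 arm and 51.6% (38.7 to 64.2%) in controls, and it also differed in conventional cells, at 46.5% and 30.2%.

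**Figure D3:**
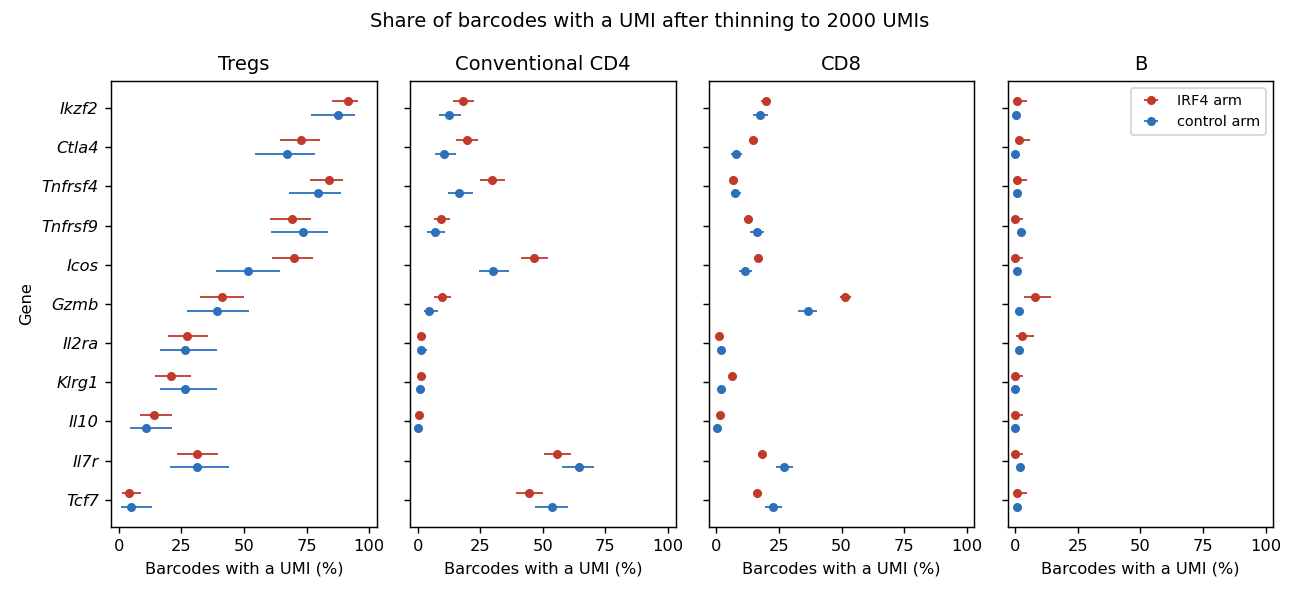
Share of barcodes with at least 1 UMI of each gene after thinning to 2000 UMIs, in Tregs, conventional CD4 T cells and CD8 T cells under both limits and in B cells, IRF4 arm in red and control arm in blue, with exact 95% intervals for counting error. Ikzf2, Ctla4, Tnfrsf4 and Tnfrsf9 lie over 50% in Tregs and under 30% in the other classes, and Tcf7 reverses that order against conventional cells.

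Expression varied strongly from cell to cell. Under both limits the per-barcode Ctla4 level ran over a middle 50% of 345.6 to 1637 CPM in the IRF4 arm and 293.9 to 1043 CPM in controls, with highest barcodes of 7812 and 6041 CPM. The medians were 798.6 CPM in the IRF4 arm and 601 CPM in controls. Il10 was concentrated, with 50% of its UMIs in 3 of 130 barcodes in the IRF4 arm and 3 of 65 in controls. The median barcode held none. Cycling was common. After thinning, 29.5% (21.8 to 38.1%) of Tregs in the IRF4 arm and 31.2% (20.2 to 44.1%) in controls held a UMI of Mki67, Top2a, Birc5, Cdk1 or Ccnb2. Under the same limits the share was 8.19% and 7.66% in conventional cells and 41.1% and 25.3% in CD8 T cells, and it was 6.96% and 3.38% in B cells.

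Tregs with a cycle UMI, 38 in the IRF4 arm and 20 in controls, held less of the homing and interleukin-7 receptor transcripts than the 91 and 44 without. These classes are cut from the cells' own counts, so ratios are a description with counting intervals, and the genes named within Tregs were chosen after their values were seen. Klf2 had a ratio of 0.239 (0.164 to 0.340) in the IRF4 arm and 0.0892 (0.0344 to 0.196) in controls. Ccr2 had 0.358 and 0.188, Il7r 0.332 and 0.396, and Itgae 0.220 and 0.334. Il2ra ran the other way, at 1.45 (1.16 to 1.81) and 1.53 (1.12 to 2.09). Foxp3 was lower per UMI in cycling Tregs, with ratios of 0.514 and 0.412, and was seen after thinning in 39.5% and 35.0% of them, against 68.1% and 63.6% of the others. Cycling Tregs were also deeper, with medians of 11487 and 18606 UMIs, against 6510 and 6362, and 1 Foxp3 UMI made a member at any depth. The part of depth in these ratios was not tested. Other genes had unlike ratios in the arms. Ctla4 had a ratio of 1.09 (0.988 to 1.20) in the IRF4 arm and 0.402 (0.341 to 0.474) in controls, and Il10 0.748 (0.520 to 1.07) and 0.141 (0.0482 to 0.342).

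**Figure D4:**
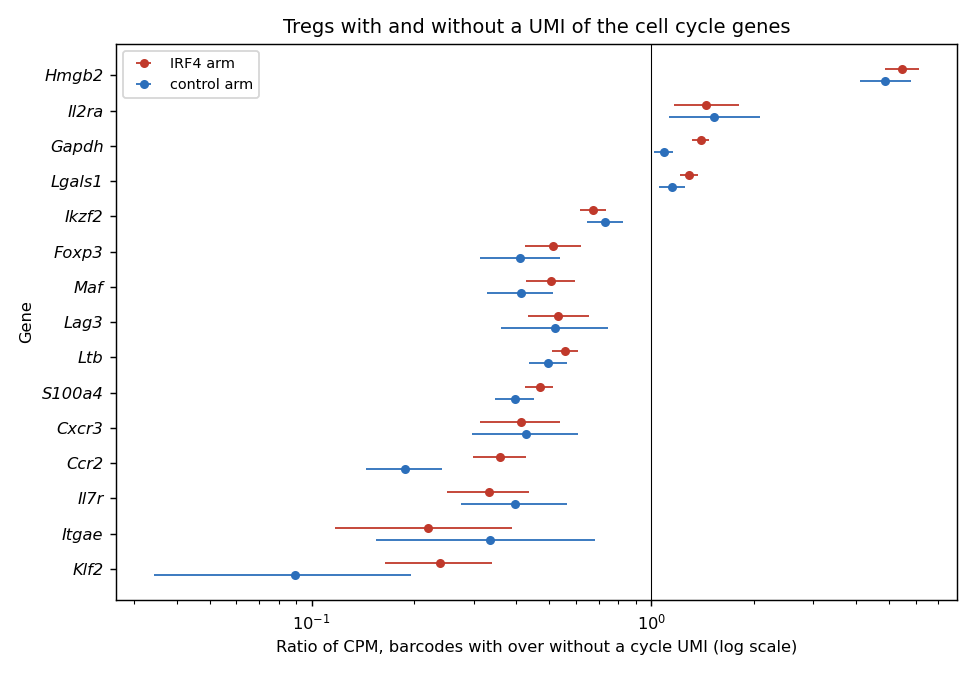
Ratio of CPM in Tregs with over Tregs without a cycle-gene UMI (log axis), for members under both limits, in the IRF4 arm (red) and the control arm (blue), with 95% intervals for counting error. Hmgb2, a chromatin protein of dividing cells, lies at 5.48 and 4.87, whereas Klf2, Itgae, Il7r and Ccr2 lie below 0.5 in both arms.

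Other surface and effector genes marked overlapping groups. Tregs with a Tnfrsf9 UMI after thinning, 89 in the IRF4 arm and 47 in controls, held more Tnfrsf4 than the 40 and 17 without, by ratios of 1.87 (1.71 to 2.05) and 2.50 (2.08 to 3.03). Tnfrsf18 had 1.93 and 2.15, Il2ra 1.71 and 1.64, and Ikzf2 1.53 and 1.55. These 4 genes were thus higher beside Tnfrsf9 in both arms, but others had unlike ratios. Ctla4 had 1.74 in the IRF4 arm and 0.934 in controls, Icos 1.73 and 0.897, and Ccr2 1.88 and 0.440. Tregs with a Gzmb UMI, 53 and 25, held more Ccr2, by 2.57 (2.19 to 3.03) and 2.43 (1.98 to 2.99), and more Maf, a factor of interleukin-10 producers, by 1.55 and 2.22. Their Il10 was higher by 3.83 (2.61 to 5.74) in the IRF4 arm and by 1.82 (0.912 to 3.63) in controls. Tregs with a Klrg1 UMI, 27 and 17, had an Il10 ratio of 2.58 (1.77 to 3.73) and 2.28 (1.13 to 4.54), and an Nrp1 ratio of 0.192 (0.0386 to 0.582) and 0.128 (0.00310 to 0.792). The thinned share with an Il10 UMI did not follow, at 11.1% and 11.8% of the Klrg1 group, against 14.7% and 10.6% of the others, and Il10 sat in few barcodes. Tregs with an Il7r UMI, 40 and 20, held more Klf2, by 2.63 (1.97 to 3.49) and 1.88 (1.03 to 3.28), and more Itgae, by 1.75 and 5.26, but less Lgals1, by 0.690 and 0.557. Ccr8 was seen in only 3 and 2 thinned Tregs, too few to split by.

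Between arms, several suppressive genes and the TNF receptor gene Tnfrsf4 lay higher in Tregs of the IRF4 arm. Part of the calls with all members was no longer made under both limits. A gene was tested when its higher library gave 50 CPM and 20 UMIs or more, and was called past a 1.5-fold ratio of CPM plus 1. With all members, 210 of 3395 genes (6.19%) were higher in the IRF4 arm and 281 (8.28%) lower. Under both limits the counts were 92 of 3365 (2.73%) and 162 (4.81%), with 49 higher and 65 lower genes common to both. The 49 were 23.3% of the higher calls with all members and 53.3% of those under both limits. Deep barcodes weigh more in summed counts. Under both limits the deepest held 72429 of 1415246 UMIs in the IRF4 arm and 90927 of 824487 in controls. The 9 myeloid markers summed to 712.6 CPM in the IRF4 arm and 1948 CPM in controls with all members, and to 115.9 and 326.3 CPM under both limits. Their part in the calls was not tested. Under both limits the other marker lists summed to 4.24 and 3.639 CPM for natural killer cells, 8.479 and 12.13 CPM for B cells, 8.479 and 4.852 CPM for neutrophils, 7.773 and 23.04 CPM for gamma delta T cells, 14.84 and 9.703 CPM for melanoma and 0 and 42.45 CPM for red cells.

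Ctla4 was the marker of the label that differed most between arms. It stood at 1079 CPM in the IRF4 arm and 576.7 CPM in controls with all members, a ratio of 1.87 (1.74 to 2.01), and at 1232 and 798.1 CPM under both limits, a ratio of 1.54 (1.41 to 1.69). Ikzf2 had ratios of 1.59 with all members and 1.18 (1.10 to 1.27) under both limits, and Il2ra 1.22 and 1.03 (0.859 to 1.23). The difference in Ctla4, Ikzf2 and Il2ra was thus smaller under both limits. Foxp3 had 1.45 and 1.17, but 1 Foxp3 UMI made a member at any depth, so both ratios are a description. Tnfrsf4 stood at 1838 CPM in the IRF4 arm and 1132 CPM in controls under both limits, a ratio of 1.62 (1.51 to 1.75). Icos had a ratio of 1.52 (1.34 to 1.73), Tnfrsf18 1.39 (1.26 to 1.52) and Tnfrsf9 1.35 (1.23 to 1.48). The same genes were higher in conventional cells of the IRF4 arm under the same limits. Tnfrsf4 stood there at 320 and 175.2 CPM, Icos at 421.8 and 217.1 CPM and Ctla4 at 158.6 and 81.51 CPM. These arm differences were thus not seen in Tregs alone. In Tregs without a cycle UMI after thinning, under both limits, the arms were close for Ctla4 (1182 and 1212 CPM) and Icos (735.2 and 705.1 CPM). In Tregs with a cycle UMI they stood at 1284 and 487.7 CPM for Ctla4 and 510.6 and 183.2 CPM for Icos. Tnfrsf4 was higher in the IRF4 arm in both groups, at 1883 and 1393 CPM without and 1794 and 911.6 CPM with a cycle UMI.

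Among suppressive and inhibitory genes, Il10 stood at 93.98 CPM in the IRF4 arm and 46.09 CPM in controls under both limits. Its ratio was 2.04 (1.41 to 3.01), with 3 barcodes holding 50% of its UMIs in each arm. Tregs without a cycle UMI after thinning had Il10 at 107.4 and 90.62 CPM, and those with a cycle UMI at 80.32 and 12.78 CPM. Lag3 stood at 296.1 and 163.7 CPM, a ratio of 1.81 (1.49 to 2.21), and Pdcd1 at 249.4 and 162.5 CPM, a ratio of 1.54 (1.25 to 1.89). The thinned shares of Tregs with a UMI were nearly equal in the arms, at 38.0% and 35.9% for Lag3 and 27.9% and 26.6% for Pdcd1. In conventional cells the thinned Pdcd1 shares were 22.5% and 10.2%. Areg had a ratio of 8.12 (5.12 to 13.5) with all members, where 2 barcodes held 50% of its UMIs in the IRF4 arm, and 2.82 (1.54 to 5.59) under both limits. Klrg1 was lower in the IRF4 arm, at 151.2 and 207.4 CPM, a ratio of 0.729 (0.594 to 0.897). Batf had 1.27 (1.03 to 1.57). Gzmb had 1.29 (1.14 to 1.46). Under both limits, Tregs without a cycle UMI after thinning had it at 728.2 CPM in the IRF4 arm and 741.9 CPM in controls. With all members that had no cycle UMI before thinning, its log2 ratio was -0.086. Several primary genes did not separate the arms beyond counting error under both limits. Prdm1 had 0.968 (0.724 to 1.30), Il7r 1.16 (0.950 to 1.42), Havcr2 1.13 (0.823 to 1.56), Tcf7 0.717 (0.323 to 1.62), Ccr8 1.22 (0.551 to 2.91) and Tigit 1.997 (0.835 to 5.49). Il1rl1 was higher in the IRF4 arm on few counts, 26 and 2 UMIs in 9 and 2 barcodes, a ratio of 7.57 (1.90 to 65.8). Irf4 was lower in the IRF4 arm, at a ratio of 0.345 (0.174 to 0.664). Under both limits, Tregs without a cycle UMI after thinning also had less of it in the IRF4 arm, at 9.765 and 28.32 CPM. With all members that had no cycle UMI before thinning, its log2 ratio was 0.24.

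Mki67 turned with the choice of barcodes. With all members it stood at 340.2 CPM in the IRF4 arm and 328.1 CPM in controls, a ratio of 1.04 (0.931 to 1.15). Under both limits it stood at 337 and 572.5 CPM, a ratio of 0.589 (0.517 to 0.670), with 50% of its UMIs in 7 and 3 barcodes. The thinned share with a cycle UMI was nearly equal in the arms, at 29.5% and 31.2%.

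By list, the arms are described against the shares over all genes of at least 10 CPM in either arm. With all members these shares were 8.09% higher and 11.4% lower in the IRF4 arm, and under both limits 7.23% and 11.6%. Suppression genes had a median log2 ratio of 0.76 with all members, 9 of 15 higher and 2 lower, and of 0.38 under both limits, 6 of 16 higher (Ctla4, Il10, Prf1, Areg, Lag3 and Itgb8) and 2 lower (Il1rn and Penk). The activated tumour Treg list had medians of 0.54 and 0.27, with 5 of 19 genes higher and 3 lower under both limits. The TNF receptor and NF-kB list had 0.51 and 0.26, with 1 of 16, Tnfrsf4, higher under both limits, a share close to that over all genes. The Treg identity list without Foxp3 had 0.29 and 0.11, with 3 of 13 higher and 2 lower. All 4 medians lay above that of all genes, 0.03 with all members and -0.03 under both limits, and were smaller under both limits.

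The medians of the early activation list and the interferon lists were as high or higher under both limits. The early activation list had medians of 0.41 and 0.45, with 5 of 17 higher (Fos, Fosb, Ier2, Dusp1 and Tox) and 0 lower under both limits. Fosb stood at 77.02 CPM in the IRF4 arm and 19.41 CPM in controls, a ratio of 3.97 (2.34 to 7.19), and in conventional cells at 314.9 and 124.9 CPM. The interferon-gamma response list had 0.22 and 0.32, with 4 of 18 higher (Irf1, Gbp2, Igtp and Iigp1) and 0 lower under both limits. Iigp1, an interferon-induced GTPase, stood at 299.6 CPM in the IRF4 arm and 127.4 CPM in controls, a ratio of 2.35 (1.90 to 2.94), and in conventional cells at 142.7 and 60.18 CPM. The type I interferon list had -0.09 with all members and 0.26 under both limits, with 5 of 13 higher and 1 lower. Ifit1 stood at 48.05 and 10.92 CPM under both limits. Conventional cells had Ifit1 at 122.8 and 16 CPM, so the IRF4 arm lay higher in both classes for Fosb, Iigp1 and Ifit1.

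**Figure D5:**
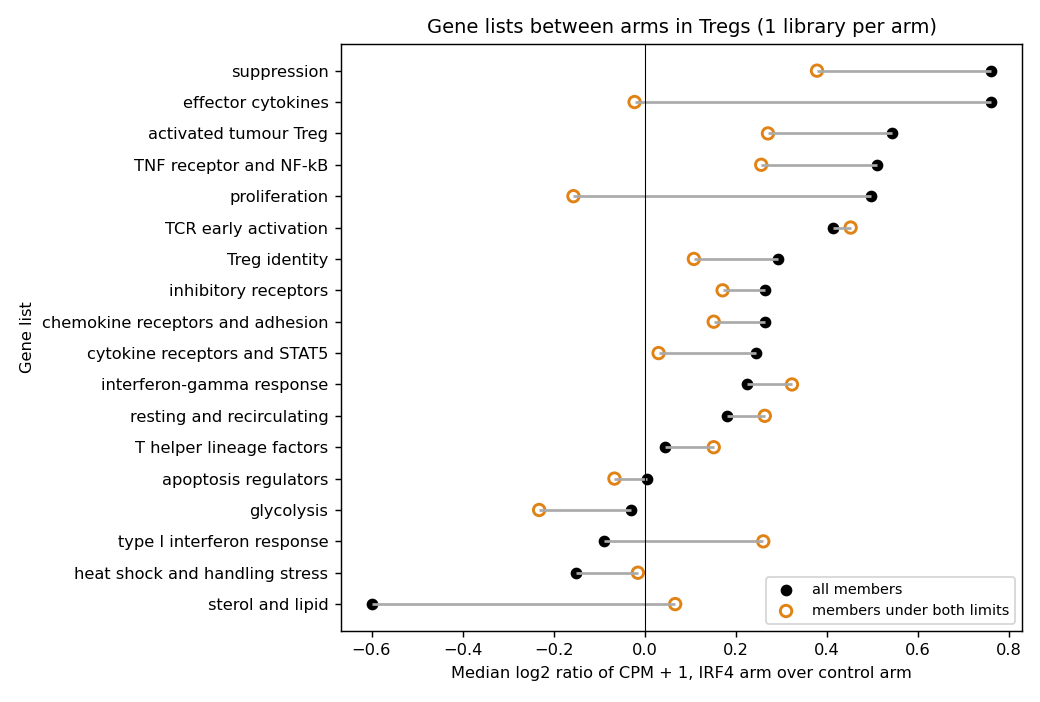
Median log2 ratio of CPM plus 1, IRF4 arm over control arm, for each of 18 gene lists in Tregs, with all members (black) and with members under both limits (orange), 1 library per arm. Suppression lies at 0.76 and 0.38, sterol and lipid at -0.60 and 0.07, and proliferation at 0.50 and -0.16.

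Other lists depended on which barcodes were counted. Proliferation had medians of 0.50 with all members, 8 of 21 higher, and -0.16 under both limits, with 0 higher and 3 lower (Mki67, Top2a and Nusap1). Sterol and lipid genes had -0.60, 9 of 16 lower, and 0.07 under both limits, 2 of 14 higher and 2 lower. Effector cytokines had 0.76, 4 of 7 higher, and -0.02, 3 of 6 higher (Ifng, Tnf and Lta) and 3 lower (Ccl3, Ccl4 and Ccl5). Ccl5 stood at 1193 CPM in the IRF4 arm and 2781 CPM in controls under both limits. Glycolysis had -0.03 and -0.23, with 0 of 16 higher and 3 lower under both limits. The resting and recirculating list had 0.18 and 0.26, with Klf2 and S1pr1 higher in both sets of barcodes and Ccr7 lower. Chemokine receptors and adhesion had 0.26 and 0.15, cytokine receptors and STAT5 0.25 and 0.03, inhibitory receptors 0.26 and 0.17, T helper lineage factors 0.05 and 0.15, apoptosis regulators 0.00 and -0.07, and heat shock -0.15 and -0.01.

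Ranked between arms with all members, the 10 highest genes in the IRF4 arm were Areg, Txk, Gzma, Erdr1, Iigp1, Gem, Rgcc, Cdc20, Lag3 and Il10. Gzma, a tryptase of cytotoxic cells, stood at 185.9 and 57.57 CPM, on 15 and 5 barcodes, and the 3 natural killer markers summed to 69.08 and 7.311 CPM in the same barcodes. Their part in it was not tested. The 10 lowest were C1qb, Ccl22, Il4i1, Tmem176b, Ccr7, Tmem176a, Spp1, Ccl2, Clec4n and Cd83, for the most part genes of macrophages and mature dendritic cells. C1qb stood at 1.039 CPM in the IRF4 arm and 120.6 CPM in controls, with 1 barcode holding 50% of its UMIs in the control arm. Under both limits the 10 highest were Fosb, Iigp1, Ier2, Ostm1, Hbs1l, Tigd2, Exoc2, Zc3h12d, Il10 and Trp53inp1. Hbs1l stood at 125.1 and 59.43 CPM, a ratio of 2.10 (1.53 to 2.95), and Zc3h12d, an RNA-degrading regulator of lymphocytes, at 51.58 and 24.26 CPM. The 10 lowest were Marcks, Spp1, Ctsh, Ccl6, Hmox1, Zeb2, Cst3, Ccr7, H2-Aa and H2-Eb1. For Spp1, Ccl6, Hmox1, H2-Aa and H2-Eb1 1 control barcode held 50% of the UMIs, and for Cst3 2 did, at 202.1 CPM in the IRF4 arm and 1384 CPM in controls. Myeloid transcripts thus also led the lower genes under both limits, in a few control barcodes. Ccr7 stood at 23.32 and 154 CPM, with 2 of 10 control barcodes holding 50% of its UMIs.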

How the data were processed

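The authors deposited 1 matrix per library, holding whole counts of UMIs for 28692 genes in each barcode. Per the submitters' processing notes they used Cell Ranger 3.0.2 and STAR 2.6 with mm10. The protocol in the labels speaks of both sorted cells and a nucleus suspension, which was not settled. Members and gene lists were chosen with earlier results of these data known, and the limits on antigen-presenting-cell transcripts (in 10000 UMIs, 30 for MHC class II or 10 for Tyrobp and Fcer1g) after seeing the data.

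Counts were summed per library and class with Python 3.11.15, numpy 2.4.6, scipy 1.17.1, pandas 2.3.3 and matplotlib 3.10.9. Between arms, ratios of counts per 1000000 have exact conditional binomial 95% intervals, and shares have Clopper-Pearson intervals. The limit given for a count of 0 is 3 counts. Tregs and conventional cells were compared with edgeR 4.0.16 in R 4.3.3 (TMM, filterByExpr, library block), with DESeq2 1.42.0 as an alternative. The edgeR script was tested on simulated data. List members counted between arms had 10 CPM or more in either arm. No doublet caller was run. Coordinates are from GENCODE M21.

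Named were 25 primary genes, the 10 highest and lowest between arms (at least 50 CPM, 20 UMIs and 10 barcodes), the 10 highest and lowest of Tregs over conventional cells (adjusted p under 0.05, same direction in both libraries, at least 20 CPM) and examples of each list. Some genes of these sets are not reported here. Ribosomal, mitochondrial, predicted, receptor segment and rule genes stayed out of the ranked sets. List examples beyond 4 were chosen after their values were seen.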

Additional observations from a re-analysis of the deposited data

How the results depend on the processing

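No paired analysis was possible because the arms have 1 library each and the labels no replicate numbers; only Tregs and conventional cells were paired, by library. Leaving out a library leaves no residual degrees of freedom. Of 8 alternatives, 6 kept the ratio of Treg shares near its 1.27, and it was 2.24 without any Lyz2 UMI and 1.78 under the antigen-presenting-cell limits. None relaxed the Lyz2 limit, on which the direction of this ratio depends. Tregs per 100 CD8 T cells had a ratio of 0.678 under these limits. Genes higher and lower in the IRF4 arm, 210 and 281, numbered 92 and 162 under the limits, 336 and 461 without cycle UMIs and 430 and 609 at 20 CPM and 10 UMIs. Without any Lyz2 UMI 346 were higher, and at 2000 UMIs per barcode 82 were lower. For Tregs over conventional cells, 860 higher and 726 lower, the counts were 329 and 221 without any Lyz2 UMI, 214 and 304 at up to 5% mitochondrial UMIs, 222 and 208 at 2000 UMIs, 413 and 244 without cycle UMIs, and 240 and 229 with DESeq2. Without TMM 1336 were higher. The sterol and lipid median turned to 0.078 without any Lyz2 UMI, 0.067 under the limits and 0.051 under the limits as a mean over barcodes, and that of effector cytokines to -0.022 and -0.98 under the limits. Over the alternatives, 193 log2 ratios between arms stayed the same, 105 moved and 2 reversed. With all members but without cycle UMIs, the log2 ratio between arms turned to 0.24 for Irf4 and -0.086 for Gzmb. The causes were not tested. Of the primary-gene folds of Tregs over conventional cells, 249 were unchanged in call and 11 were no longer called: Icos and Batf without any Lyz2 UMI, at up to 5% mitochondrial UMIs and with DESeq2, Batf also at 2000 UMIs and without cycle UMIs, Irf4 without any Lyz2 UMI and at up to 5%, and Mki67 at up to 5%.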
